A study of Mus musculus with 16 samples.

Results

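The regions described here were open in 7 of the 8 peak lists of a mouse progenitor series and had no peak in the remaining list, that of Flt3-ITD in set 2. The peaks of chromosomes 1 to 19 were joined wherever they shared 1 bp or more, which gave 118981 union regions over the 8 lists. Of these, 6672 held a peak in each of the other 7 lists and none in set-2 Flt3-ITD, and 40645 held a peak in all 8 lists. Presence and absence of a peak chose these 6672 regions, so the absence itself is a definition and not a result.

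ATAC-seq uses the transposase Tn5 to insert adapters into open DNA, and it was applied here to haematopoietic progenitors (multipotent progenitors in the labels) of mice 21 days old. The 8 groups had 2 samples each and formed 2 sets that the sample titles tell apart. Set 1 held wild type mice, Flt3-ITD mice, mice that were Runx1-het, and the double mutant Flt3-ITD/Runx1-het. Set 2 held wild type, NUP98-HOXD13, Flt3-ITD and NUP98-HOXD13/Flt3-ITD mice. Flt3-ITD is an internal tandem duplication that keeps the receptor tyrosine kinase Flt3 active, Runx1-het is loss of 1 copy of the transcription factor gene Runx1, and NUP98-HOXD13 is a leukaemia fusion gene. The labels used here do not state the strain, the promoter that drives the fusion gene or whether a sample pooled animals.

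Each group had 1 peak list for its 2 samples, so no value below has a replicate error. Wild type and Flt3-ITD have 1 list in each set and the other genotypes 1 list in all, and no test between genotypes was made. Read depth was unknown. The lists held 70341 to 86091 regions except set-2 Flt3-ITD, which held 55884, and the median −log10 p of its peaks was 15.8 against 24.7 to 38.6 in the others. All 8 lists held a region within 1 kb of a start site of the progenitor genes Kit, Cd34, Gata2, Meis1 and Mpo. No list held one (0 lists) at Cd3e or Cd8a, which mark T cells, and 5 lists, set-2 Flt3-ITD not among them, held one at the eosinophil gene Epx. Other T and NK cell genes went the other way. The 7 lists other than set-2 Flt3-ITD held regions over starts of Tcf7 and Eomes. Of 16 T and NK cell genes, 12 were nearest to a region held by those 7 lists.

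Open regions fall into promoters, next to the start of a gene, and distal elements, many of which are enhancers. Promoters of widely used genes are often rich in CpG and open in most cells, while enhancers are more often open in particular lineages. Distal elements bound by ETS, RUNX, GATA and C/EBP factors are known to carry much of the lineage program of blood progenitors, and Flt3 signalling reaches chromatin through STAT5 and the MAPK pathway.

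Promoters under the regions that set-2 Flt3-ITD lacked are shown first, since these are the members for which sequence was at hand (RefSeq, GRCm38.p6). Each line gives the 250 bases before the start site, 5′ to 3′ on the strand of the gene, chosen to show the strongest member (Unc13b), other strong promoter members (Nrarp and Gosr1) and members at genes of blood lineages (Hoxa10, Itga2b and Cpa3). Capitals mark matches, on either strand, to any of 12 motifs, and matches that overlap are both marked. The ETS motif was searched as GGAAGT, that of RUNX factors as TGTGGT and that of GATA factors as AGATAA. STAT proteins were given the letters TTCNNNGAA and AP-1 the letters TGANTCA, while the cyclic AMP response element (CRE) was TGACGTCA. The E-box was CAGCTG, the C/EBP motif TTGCNNAA, the SP/KLF motif GGGCGG and the NFY motif CCAAT. A CTCF core and an interferon element completed the search.
Unc13b, chr4:43058703-43058952, plus strand, SP/KLF and NFY matches: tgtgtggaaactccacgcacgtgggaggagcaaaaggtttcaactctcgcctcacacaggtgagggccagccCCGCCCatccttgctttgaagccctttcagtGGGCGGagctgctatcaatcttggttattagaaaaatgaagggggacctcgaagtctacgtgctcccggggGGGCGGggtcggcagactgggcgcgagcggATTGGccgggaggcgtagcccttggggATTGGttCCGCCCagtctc
Nrarp, chr2:25180508-25180757, plus strand, SP/KLF, NFY and C/EBP matches: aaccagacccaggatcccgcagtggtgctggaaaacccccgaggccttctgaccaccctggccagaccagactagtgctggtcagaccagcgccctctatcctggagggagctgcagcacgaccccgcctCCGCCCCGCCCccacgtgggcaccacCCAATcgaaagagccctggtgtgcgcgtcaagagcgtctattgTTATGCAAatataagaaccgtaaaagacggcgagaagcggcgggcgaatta
Gosr1, chr11:76763579-76763828, minus strand, RUNX and CTCF matches: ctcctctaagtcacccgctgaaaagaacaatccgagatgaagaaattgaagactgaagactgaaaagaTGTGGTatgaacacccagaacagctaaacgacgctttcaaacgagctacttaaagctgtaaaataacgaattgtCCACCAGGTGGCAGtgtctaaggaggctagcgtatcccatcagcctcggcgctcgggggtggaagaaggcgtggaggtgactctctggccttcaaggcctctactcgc
Hoxa10, chr6:52240855-52241104, minus strand, ETS and SP/KLF matches: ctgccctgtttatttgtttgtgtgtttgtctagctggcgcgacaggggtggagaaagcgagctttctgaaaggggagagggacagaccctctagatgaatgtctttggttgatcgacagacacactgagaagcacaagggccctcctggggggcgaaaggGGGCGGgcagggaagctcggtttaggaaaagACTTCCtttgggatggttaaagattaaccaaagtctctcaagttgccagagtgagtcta
Itga2b, chr11:102469884-102470133, minus strand, ETS, E-box and interferon element matches: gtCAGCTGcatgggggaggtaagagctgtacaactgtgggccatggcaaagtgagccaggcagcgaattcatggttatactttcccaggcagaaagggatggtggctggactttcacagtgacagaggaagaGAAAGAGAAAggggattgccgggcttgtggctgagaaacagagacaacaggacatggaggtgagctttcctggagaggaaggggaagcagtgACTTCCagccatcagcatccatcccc
Cpa3, chr3:20242182-20242431, minus strand, RUNX, GATA and E-box matches: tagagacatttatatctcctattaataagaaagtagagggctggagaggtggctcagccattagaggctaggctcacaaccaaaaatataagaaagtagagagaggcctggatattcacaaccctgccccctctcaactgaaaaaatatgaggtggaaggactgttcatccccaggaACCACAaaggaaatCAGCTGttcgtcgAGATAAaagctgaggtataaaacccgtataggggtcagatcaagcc

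Among the 47317 regions held by the 7 other lists, 14.1% (6672) were missing from set-2 Flt3-ITD. The same count made for every other list gave 0.623% (255 of 40900) missing only from set-2 wild type, 0.917% (376) from Runx1-het, 1.24% (512) from set-1 Flt3-ITD and 1.77% (733) from Flt3-ITD/Runx1-het. It gave 2.6% (1087) for NUP98-HOXD13, 2.83% (1182) for set-1 wild type and 3.0% (1258) for NUP98-HOXD13/Flt3-ITD. Of all regions held by exactly 7 lists, 55.2% lacked set-2 Flt3-ITD. Set-1 Flt3-ITD, the list of the same genotype, thus had the third lowest of the 8 shares. Genotype, set, list length and depth of the 1 list cannot be told apart by these counts.

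Strength was compared as the within-list rank of the best peak by the authors' −log10 p (0 weakest, 100 strongest), because the values of different lists are not on 1 scale. In every one of the 7 lists the median member ranked a little above the middle of the list, between 54.4 in set-1 wild type and 60.4 in set-2 wild type. Regions held by all 8 lists ranked higher, with medians of 78.75 to 82.9 in the same 7 lists and 71.7 in set-2 Flt3-ITD. The interquartile ranges of members and of regions held by all 8 lists did not overlap in 5 of the 7 lists, as in set-2 wild type (50.6 to 69.3 against 71.5 to 91.9) and set-1 Flt3-ITD (46.8 to 66.7 against 68.5 to 91.0). They overlapped in NUP98-HOXD13 (members up to 67.9, the others from 67.1). NUP98-HOXD13/Flt3-ITD was alike, with 68.6 and 67.95.

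**Figure D1:**
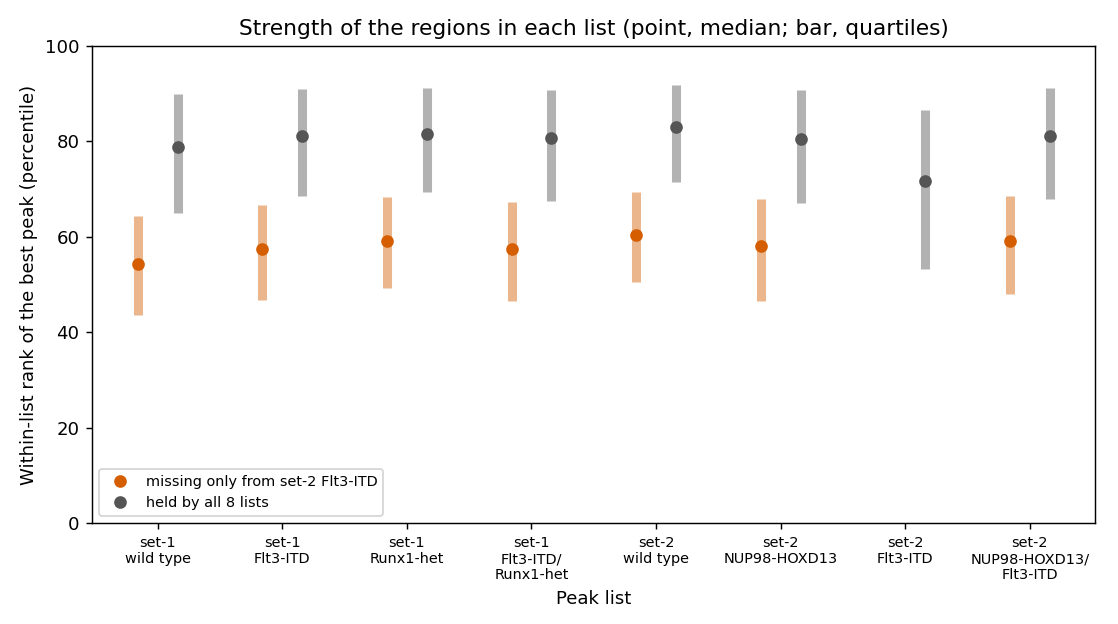
Within-list rank (percentile of the authors' −log10 p, y axis) of the best peak per region in each peak list (x axis), for the 6672 regions missing only from set-2 Flt3-ITD and the 40645 held by all 8 lists; points are medians and bars run from the lower to the upper quartile. Member medians lie between 54.4 and 60.4 in the 7 lists, below the 71.7 to 82.9 of regions held by all 8.

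On the authors' own scales members were lower too. Median −log10 p of members was 56.8 in set-2 wild type against 155 for regions held by all 8 lists, and 44.5 against 109 in set-1 Flt3-ITD. It was 32.5 against 81.4 in NUP98-HOXD13. Median fold enrichment over background was 9.62 against 15.2 in set-2 wild type and 7.34 against 11.7 in NUP98-HOXD13. The deposited score, a whole number up to 1000, stood at 1000 for 28.1% of members in set-1 wild type and 70.2% in set-2 wild type, where 76.5% and 94.8% of regions held by all 8 lists had it.

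The lowest of a region's 7 ranks tells whether it was strong everywhere. Its median was 43.0 among members (quartiles 33.2 and 53.5) and 71.99 among regions held by all 8 lists (55.01 and 86.5). Members were also less even, with a median spread of 23.97 ranks between their highest and lowest list against 13.1. At 50 or above in all 7 lists were 2187 members (32.8%) and 81.1% of regions held by all 8 lists, and at 75 or above were 94 members (1.41%) and 44.9%.

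The share missing from set-2 Flt3-ITD fell with strength but stayed above that of every other list in each band. It was 50.6% of 484 regions whose lowest rank was up to 20, 41.5% from 20 to 40 and 24.7% from 40 to 60. It was then 6.26% (95% Wilson interval 5.87 to 6.68, counting error only) from 60 to 80 and 0.203% (30 of 14809) above 80. The other 7 lists lay between 4.89% and 14.3% in the weakest band and between 0.00875% and 0.457% from 60 to 80. For those lists the lowest rank includes the set-2 Flt3-ITD rank, which puts regions in lower bands. By the median of the 7 ranks, which leans less on 1 list, set-2 Flt3-ITD lacked 15.5% of regions ranked 60 to 80 and the other lists 0.252% to 2.82%. With a median rank of 75 or above, 453 of 25896 held regions (1.75%) were missing only from set-2 Flt3-ITD. Each other list lacked 1 to 66 such regions (0.00411% to 0.266% of those held).

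**Figure D2:**
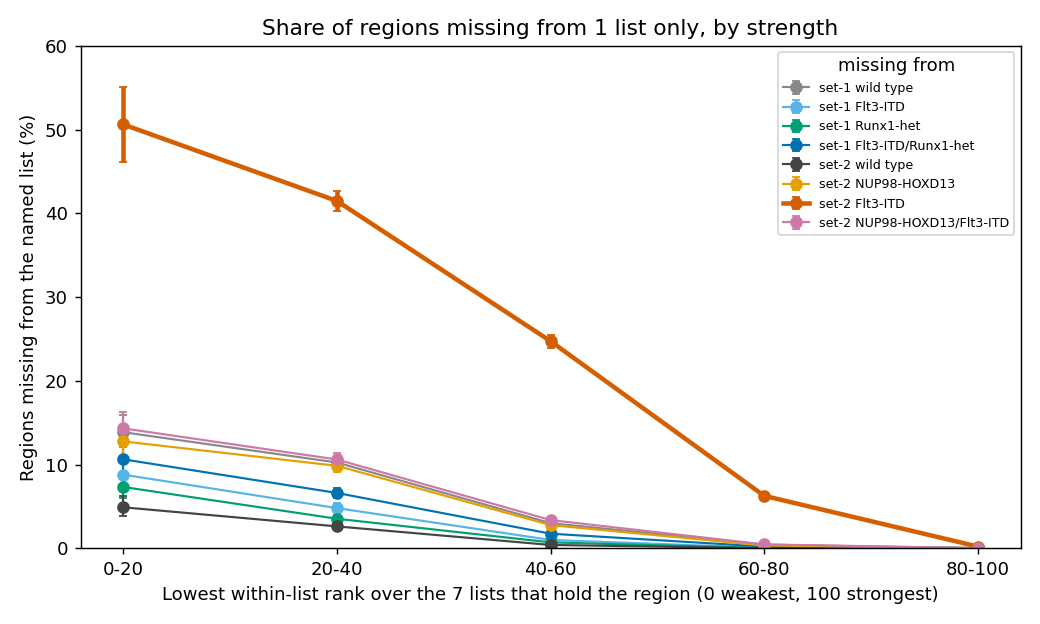
Share of regions missing from 1 list only (y axis, percent of regions held by the other 7, with 95% Wilson intervals) by the lowest within-list rank over the lists that hold them (x axis, 5 bands), 1 line per missing list. The line of set-2 Flt3-ITD runs from 50.6% to 0.203%, above the other 7 lists in every band.

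The members strongest in their weakest list lay at genes of many functions. The strongest, a region of 1068 bp over the start of Unc13b, a vesicle-priming factor (chr4:43058649-43059716), had −log10 p of 157 in set-1 wild type, 159 in set-1 Flt3-ITD, 158 in Runx1-het and 144 in Flt3-ITD/Runx1-het. In set 2 it had 200 in wild type, 131 in NUP98-HOXD13 and 117 in the double mutant. The double mutant that carries Flt3-ITD in set 2 thus had the lowest −log10 p. By within-list rank it had 86.5, within the range of the others (86.1 to 88.3). The region was chosen for the highest lowest rank, so high and close ranks in every list that held it follow from that choice. The nearest peak of set-2 Flt3-ITD was 5627 bp away.

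A distal region 19847 bp from Hsf2, a heat shock transcription factor gene (chr10:57463320-57463919), had values from 113 in NUP98-HOXD13/Flt3-ITD to 236 in Runx1-het. A region inside Adcy9, an adenylyl cyclase gene (chr16:4315920-4316548), ran from 96.7 in NUP98-HOXD13/Flt3-ITD to 183 in Flt3-ITD/Runx1-het. The region inside Arg2, the mitochondrial arginase gene (chr12:79130329-79131311), ran from 111 in NUP98-HOXD13 to 197 in set-2 wild type. The lowest value of each of the 12 strongest members came from NUP98-HOXD13 or NUP98-HOXD13/Flt3-ITD, the 2 lists of these 7 with the lowest medians over regions held by all 8 (81.4 and 85.0), and set-2 wild type was the highest in 7 of the 12.

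The others of the 12 strongest lay near Rab11fip1, an effector of endosome recycling, Impdh1, an enzyme of guanine nucleotide synthesis, Clip2, a microtubule linker, and Prdm13, a transcriptional regulator, and near Ctnna3 (an alpha-catenin), Itgad (an integrin chain), Tnfrsf19 (a tumour necrosis factor receptor relative) and Bach2. The Bach2 region, outside the gene of this repressor of myeloid programs in lymphoid cells, was 100678 bp from the gene (chr4:32137110-32137735). It had 99.6 in NUP98-HOXD13/Flt3-ITD, 104 in NUP98-HOXD13 and 133 to 162 in the other 5 lists. By within-list rank it was lowest in set-2 wild type (82.3) and highest in set-1 Flt3-ITD (88.4). All 12 of these regions, with 6 further promoter members, stayed members under each of the 8 alternative ways of building the lists. They were chosen for their strength, and the nearest set-2 Flt3-ITD peak to any of them was 1153 bp away, at Ctnna3. Shorter lists, a −log10 q limit or a 500 bp margin could thus hardly remove them, so this is no added support.

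**Figure D3:**
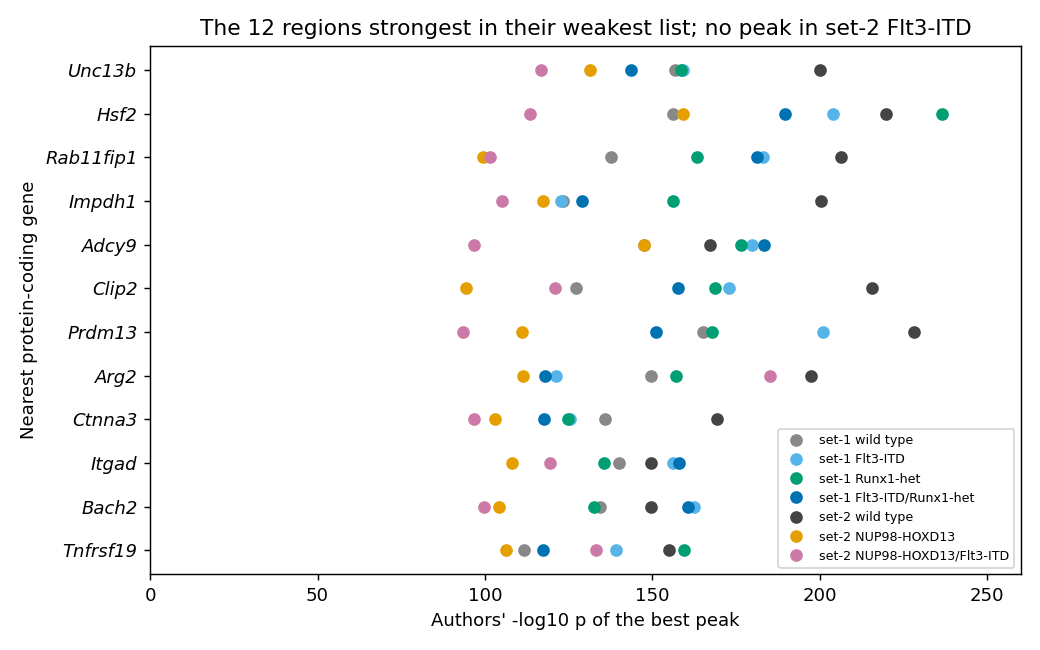
Authors' −log10 p of the best peak (x axis) for the 12 members with the highest lowest rank, named by nearest gene (y axis), 1 point per list; set-2 Flt3-ITD has no peak in any of them. Values lie between 93.4 and 236.

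At the other end, the 4 weakest members were each held only just by 1 list when read by −log10 p. The deposited score in that list did not follow, with 1000 at Kmt5c and Trpt1, 935 at Elovl6 and 425 at Phf2. The region inside Kmt5c, a histone methyltransferase gene, had −log10 p of 1.06 in Runx1-het and 12.7 to 36.0 in the other 6 lists. The region over the start of Elovl6, a fatty acid elongase gene, had 1.48 in set-1 wild type and 34.9 to 64.3 elsewhere. Just outside the rule were regions that set-2 Flt3-ITD held weakly. The lowest set-2 Flt3-ITD value among regions held by all 8 lists was 2.67, inside Sdccag8, where the other lists had 40.4 to 83.8, and a region near Gdi2 had 3.09. Among the strongest regions held by all 8 lists, one inside Ckm, a creatine kinase gene, had 37.3 in set-2 Flt3-ITD and 267 to 446 in the others. Within set-2 Flt3-ITD this was still a rank of 78.9, where the other lists had 95.1 to 96.9.

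In median, members ranked about level in the other lists that carry Flt3-ITD and in those that do not. For each region the mean rank in set-1 Flt3-ITD, Flt3-ITD/Runx1-het and NUP98-HOXD13/Flt3-ITD was set against the mean rank in set-1 wild type, Runx1-het, set-2 wild type and NUP98-HOXD13. The median difference was 0.0691 ranks among members (quartiles −4.70 and 4.69) and −0.0387 among regions held by all 8 lists. The lists with Flt3-ITD were lower in 49.6% of members and 51.0% of the others. All 3 lists with Flt3-ITD ranked below all 4 without in 3.06% of members (204), where 2.98% of regions held by all 8 lists did so. They ranked above all 4 in 2.86% (191), against 3.02%. Within set 1, the median difference of Flt3-ITD from wild type was 2.595 ranks among members and 1.09 among regions held by all 8 lists. Flt3-ITD was the lower there in 40.6% and 36.8%. The rule asks for a peak in each of these 7 lists, so a small difference is partly built in. Ranks come from lists of different lengths, 110352 to 134913 peaks in these 7, so a difference in rank is not shown to be a change with genotype.

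Single members differed more. The member with the lowest mean difference lay inside Wdr60, a dynein subunit gene, at −31.0 ranks between the 3 lists with Flt3-ITD and the 4 without. Its ranks were 18.8 and 33.2 in the set-1 lists with Flt3-ITD but 65.7 in NUP98-HOXD13/Flt3-ITD. The 4 lists without had 59.1 to 79.8. The next lay near Rph3al (−29.7) and inside Slc39a11, a zinc transporter gene (−29.1). Rph3al too was low only in set 1, with ranks of 44.5 and 30.2 against 75.9 in the set-2 double mutant. Slc39a11 was low in all 3 (20.6, 20.3 and 34.2, against 49.1 to 59.8 without). The highest lay near Copb1, a coatomer gene, at 41.9 ranks higher, then near Neurod6 (35.4) and Tmem230 (34.3). Differences of 10 ranks or more downwards were seen in 617 members (9.25%) and upwards in 554 (8.30%), against 4.38% and 3.62% of regions held by all 8 lists. These shares too were not compared at like strength. The named extremes were chosen for their difference and each had a low rank, between 14.9 and 31.6, in at least 1 list.

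Members were narrow. Their median union width was 646 bp (quartiles 482 and 863) against 893 bp (685 and 1153) for regions held by all 8 lists, and 15.9% against 38.4% reached 1000 bp. Together they covered 4.75 Mb. In set-2 wild type, 68.3% of members and 49.0% of regions held by all 8 lists consisted of a single peak. The share missing from set-2 Flt3-ITD fell from 37.7% of regions under 500 bp to 19.1% from 500 bp, 10.4% from 750 bp, 6.68% from 1000 bp and 5.21% from 1500 bp. The gap in width held at like strength: with a lowest rank from 40 to 60, members had a median of 641 bp and regions held by all 8 lists 785 bp. A region held by 1 more list can only be as wide or wider after merging, which is part of this gap by construction. In set-2 wild type alone, the median span from the first to the last peak of a region was 469 bp for members and 704 bp for the others. Merging through a further list can also join peaks and lengthen this span, and it was not compared at like strength.

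The widest members, of 2644 bp each, lay inside Ntn1, a guidance cue gene, and Dlgap4, a synaptic scaffold gene. Regions of 2504 bp over the start of Kcnc4, a potassium channel gene, and of 2440 bp inside Zfp462 followed. Their lowest ranks of 31.0 to 49.6 placed them in the weaker part of at least 1 list.

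Most members were distal. Start sites came from a promoter table that has none on chromosome 18 and lacks some genes, so shares near a start are lower bounds. Of 6445 members on the other chromosomes, 9.03% (582, interval 8.36 to 9.76) lay within 1 kb of a start site of a protein-coding gene, against 25.3% (9949 of 39318, interval 24.9 to 25.7) of regions held by all 8 lists. A further 18.9% lay 1 to 10 kb away (against 13.3%), 52.4% 10 to 100 kb away (against 40.9%) and 19.7% farther (against 20.5%). The median distance was 26278 bp against 20609 bp. Of all members, 55.7% lay inside the span of a protein-coding gene, against 65.8%.

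Promoter regions were missing less often than distal ones, 5.53% (582 of 10531) against 16.6% (5863 of 35232). Within bands of strength the gap was smaller. In the band with a lowest rank from 20 to 40 the shares were 39.6% at promoters and 41.7% at distal regions, with overlapping intervals (35.7 to 43.6 and 40.4 to 43.0). From 40 to 60 they were 20% (17.8 to 22.4) and 25.3% (24.5 to 26.1), and from 60 to 80 they were 3.86% (3.15 to 4.73) and 6.73% (6.28 to 7.22). The intervals cover counting error only, and neighbouring regions are not independent.

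**Figure D4:**
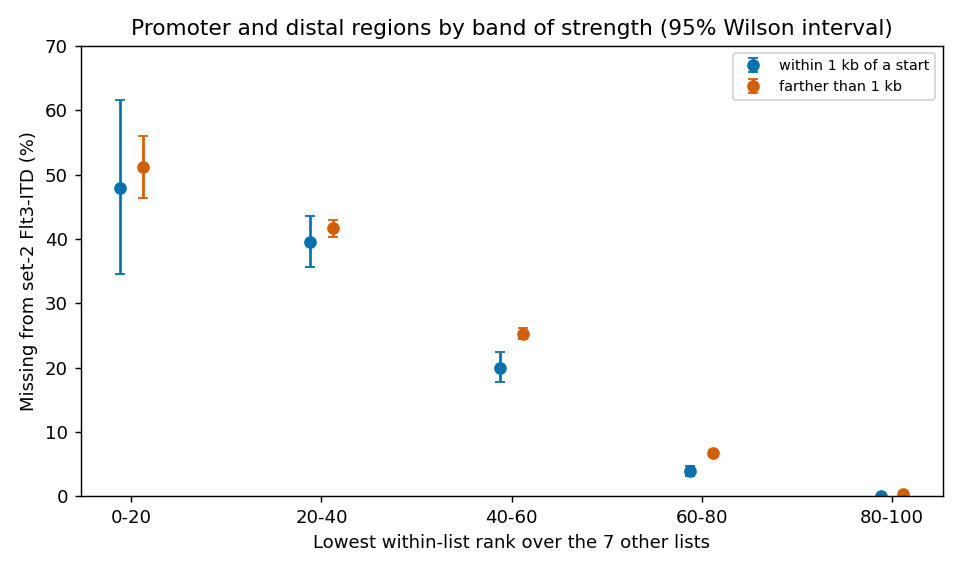
Share missing from set-2 Flt3-ITD (y axis, percent of regions held by the 7 other lists, 95% Wilson intervals) by lowest within-list rank (x axis, 5 bands) for regions within 1 kb of a start site and farther away. In the band from 60 to 80 the points are 3.86% and 6.73%.

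The promoter members lay at genes of varied function. Nrarp, a feedback inhibitor of Notch signalling, had a region of 1831 bp over its start with values from 91.7 in NUP98-HOXD13 to 165 in set-2 wild type. Gosr1, a Golgi transport gene, ran from 108 in NUP98-HOXD13 to 210 in set-1 Flt3-ITD. Kcnn3, a calcium-activated potassium channel gene, ran from 108 in Runx1-het to 161 in set-2 wild type, and each of the 3 regions of Kcnn3 held by the other lists was a member. Slc25a20, the mitochondrial carnitine carrier gene, ran from 89.0 in NUP98-HOXD13/Flt3-ITD to 166 in set-2 wild type.

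Members covered the start of 437 promoters in the table. Their median GC content over 300 bases was 60.3%, against 62.3% for the 11220 promoters under regions held by all 8 lists, 57% for all 20085 promoters on these chromosomes and 47.3% for promoters under no region. At least 10 CpG were found in 75.7% of member promoters and 87.9% of the others, but in 71.8% of the 1195 promoters under regions held by all 8 lists with a lowest rank of 60 or less. In base composition, member promoters thus lay close to other promoters of like strength.

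Motif shares, in the order of members, weak regions held by all 8 lists and all promoters, are given next. The SP/KLF letters GGGCGG, as in the Unc13b promoter above, were found in 59.0%, 59.3% and 47.0%, and in 68.5% of promoters under all regions held by 8 lists. The ETS letters GGAAGT, as in Hoxa10, were found in 24.03%, 20.9% and 24.99%. RUNX letters were found in 14.0%, 14.2% and 14.8%, GATA in 6.41%, 6.61% and 9.57%, STAT in 6.18%, 5.61% and 7.78%, and C/EBP in 10.1%, 8.12% and 10.3%. NFY letters were found in 28.1%, 30.0% and 38.1%, E-box in 15.1%, 18.4% and 15.6%, and the interferon element in 4.12%, 4.18% and 3.38%. AP-1 letters were found in 3.66% (16 of 437), 7.11% and 7.06%, and CRE letters in 0.915% (4), 1.67% and 2.30%. The CTCF letters were found in 1 member promoter, that of Gosr1, and in 0.184% of all promoters. A match is a description of letters in this window, not a bound site.

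By nearest protein-coding gene within 100 kb, 6302 members fell to 4653 genes, of which 3453 had 1 member, 884 had 2 and 316 had 3 or more. Another 370 members had no such gene. Foxp1, a forkhead factor of lymphoid development, had most, with 9 members of its 28 regions (32.1%), and Bach2 had 8 of 28 (28.6%). Lrrfip1 (46.2%), Gramd1b (31.6%), Frmd4b (27.3%), Arid1b and Maml3 (21.4% each), Nav2 (20.7%) and Zfhx3 (18.2%) had 6 each, of 13 to 33 regions. Over all regions with a gene within 100 kb the share was 14.2%, and these genes were picked for their counts, so shares above it are a description. They are long genes with many regions, Foxp1 spanning 597 kb (chr6:98925342-99522746). The 9 Foxp1 members were of weak to middle strength, with lowest ranks of 18.8 to 59.2, and the 8 Bach2 members had 22.1 to 61.1.

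All held regions of a gene were missing in 65 of 9180 genes with at least 2. With 3 regions these were Dmbx1, Dpysl5, Il31ra, Kcnn3, Plek2 and Smpd4, genes of which Il31ra encodes a cytokine receptor chain. By chromosome the share ranged from 13.0% on chromosome 13 to 15.9% on chromosome 11, around the 14.1% of all.

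At the genes that the genotypes name, Flt3 had 2 members of 7 regions, Runx1 3 of 17, and Nup98 and Hoxd13 0 of 1 each, where 14.2% of all regions with a gene within 100 kb were members. With so few regions these counts are a description. The Flt3 member with the higher lowest rank (chr5:147331613-147331926, inside the gene) had −log10 p of 30.4 in set-1 wild type and 33.9 in Runx1-het, but 52.4 in set-1 Flt3-ITD and 44.6 in Flt3-ITD/Runx1-het. In set 2 it had 35.5 in wild type, 21.0 in NUP98-HOXD13 and 25.8 in the double mutant, at within-list ranks of 47.6, 45.2 and 50.6. Both set-1 lists with Flt3-ITD were above both set-1 lists without it. In the other Flt3 member (chr5:147339517-147340020) the order in set 1 was the reverse, with 70.01 in wild type and 88.5 in Runx1-het but 48.7 in Flt3-ITD and 31.4 in Flt3-ITD/Runx1-het. The strongest Runx1 member (chr16:92638921-92639595) had 71.2 in set-1 wild type and 39.8 to 48.4 in the 3 set-1 mutants. In the set-2 lists, in the order above, it had 69.5, 49.6 and 35.2. The set-2 within-list ranks were 65.7, 69.6 and 59.98, so by rank NUP98-HOXD13 stood above wild type. In set 1 wild type stayed highest by rank, at 71.9 against 53.9 to 61.3 in the mutants.

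Gene lists of blood lineages and pathways were read against the 14.2% (6302 of 44404) of regions with a gene within 100 kb that were members. The lists were chosen with earlier results of these data known, and no test of a list was made. Of 20 lists, 10 lay above that share and 10 below, from 4.88% to 22.4%, and in 18 the counting interval held 14.2%.

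The granulocyte-monocyte list was highest, with 17 members of 76 regions (22.4%, interval 14.5 to 32.9) at 13 of its 22 genes. Its strongest members lay near Ctsc, a protease that activates granule enzymes (chr7:88343732-88344658, from 60.002 in NUP98-HOXD13/Flt3-ITD to 259 in set-2 wild type), and over the start of Fcgr3, an Fc receptor gene (chr1:171059019-171059740, 41.3 to 75.9). A region near Irf8, the factor that sets monocyte and dendritic fate (chr8:120766491-120767220), had 39.4 to 48.3 in 5 lists and reached 59.6 in Runx1-het and 96.6 in set-2 wild type. By within-list rank, NUP98-HOXD13 (68.1) stood above Runx1-het (67.0), and set-2 wild type had 73.6. A region near Csf3r, the G-CSF receptor gene, had 33.5 to 60.5. Some markers of other cell types had shares of similar size, with intervals that held 14.2%. Stroma and endothelium had 13 of 64 (20.3%, interval 12.3 to 31.7), with members at Pecam1 and Pdgfra. The dendritic cell list had 18 of 91 (19.8%, interval 12.9 to 29.1), with members at Zbtb46 and Batf3, and shared 4 members at Irf8 with the granulocyte-monocyte list. Mast cell, basophil and eosinophil genes had 7 of 36 (19.4%, interval 9.75 to 35.0), with members at Hdc and Cpa3. Their part in the granulocyte-monocyte count was not tested.

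Under the main rule, signalling lists lay above the overall share, with intervals that held it. MAPK feedback and immediate early genes had 28 members of 146 regions (19.2%, interval 13.6 to 26.3) at 18 of 25 genes, among them the receptor kinase inhibitor Spry2 with regions at 38.3 to 109 and 46.8 to 114, the orphan receptor Nr4a1 (52.7 to 98.0) and Fosb (51.8 to 126). STAT5 targets had 19 of 110 (17.3%, interval 11.4 to 25.4). They included 3 regions at the D cyclin gene Ccnd1, of which the region at chr7:144939475-144939982 had 45.4 and 45.9 in the set-1 lists with Flt3-ITD and 109 and 111 in those without. Set 2 did not repeat this by rank. There the region had 162 in wild type, 84.9 in NUP98-HOXD13 and 95.7 in the double mutant, at within-list ranks of 83.8, 81.3 and 83.2. The Ccnd1 region at chr7:144943210-144943785 had the reverse order in set 1, 64.7 and 98.8 with Flt3-ITD and 49.6 and 60.6 without. In set 2 it had 58.8 in wild type, 46.8 in NUP98-HOXD13 and 84.1 in the double mutant. The third, at chr7:144932337-144933015 and weaker in its weakest list, had 75.9 and 60.4 with Flt3-ITD and 44.8 and 59.7 without in set 1, and 64.3 in set-2 wild type, 8.46 in NUP98-HOXD13 and 26.5 in the set-2 double mutant. A region near the feedback inhibitor Socs3 had 37.8 to 58.9 in 6 lists and 122 in set-2 wild type. Its within-list ranks were closer, 53.5 to 72.3 in the 6 and 78.5 in set-2 wild type. With equal numbers of peaks ranked by fold enrichment, the MAPK and STAT5 shares were 9.26% and 10.75%, both below the 11.9% of all held regions. With equal numbers by −log10 p they were 14.9% and 11.2%, against 11.6%. Their place above the overall share thus depended on the setting.

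Lymphoid priming genes had 28 members of 167 regions (16.8%), at 13 of 22 genes, with the strongest near Sox4 (36.8 to 104). B cell genes had 5 of 28 (17.9%), including Blk and Igll1, and T and NK cell genes 6 of 43 (14.0%), including the start of the T-box gene Eomes (33.4 to 66.5) and Tcf7. Haematopoietic transcription factors had 33 of 243 (13.6%), including regions at Elf1, Ets1 and Erg, and the BCL2 family 10 of 67 (14.9%). Cell cycle and DNA replication genes had 17 of 124 (13.7%), led by a region 13270 bp from Cdk1, the mitotic kinase gene (chr10:69320449-69321876). In set 1 it had 115 in wild type and in Runx1-het, 148 in Flt3-ITD and 149 in the double mutant, and in set 2 281, 139 and 123 in wild type, NUP98-HOXD13 and NUP98-HOXD13/Flt3-ITD. As within-list ranks the set-2 values were closer, at 91.7, 89.0 and 87.3, and set 1 lay between 82.1 and 86.8.

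Interferon response genes were lowest, with 4 members of 82 regions (4.88%, interval 1.91 to 11.9) at 4 of 40 genes. They were the start of Sp100, a nuclear body gene (50.8 to 121), the start of Oasl2 (21.4 to 49.7), and regions near Zbp1, a nucleic acid sensor (26.8 to 58.5), and Ifnar1, an interferon receptor chain (36.4 to 47.1). The regions of this list were strong, with a median lowest rank of 78.6 against 67.85 for all, and 40.2% of them lay within 1 kb of a start against 24.5%. A split by strength was chosen after the data were seen. Among the 23 interferon regions with a lowest rank of 60 or less, 3 were members (13.0%, interval 4.54 to 32.1), against 31.5% of all such regions. The granulocyte-monocyte share among such regions was 42.9% (15 of 35, interval 28.0 to 59.1).

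Stem cell self-renewal genes had 11 members of 108 regions (10.2%), at Mecom, Hmga2, Erg, Lmo2 and Procr. The Mecom region, inside this stem cell factor gene (chr3:30448549-30449033), had 50.8 to 95.5. HOX and MEIS genes had 4 of 41 (9.76%), led by the start of Hoxa10 (57.1 in NUP98-HOXD13 to 124 in Runx1-het). Megakaryocyte-erythroid genes had 4 of 39 (10.3%), led by the start of Itga2b, the platelet integrin gene (52.8 to 113). MHC class I genes had 3 of 25 (12%), housekeeping genes 3 of 42 (7.14%) and mRNA and ribosome housekeeping genes 4 of 38 (10.5%). A list of neural and matrix genes, part of it picked from earlier losses in these data, had 15 of 92 (16.3%) and is no independent count.

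**Figure D5:**
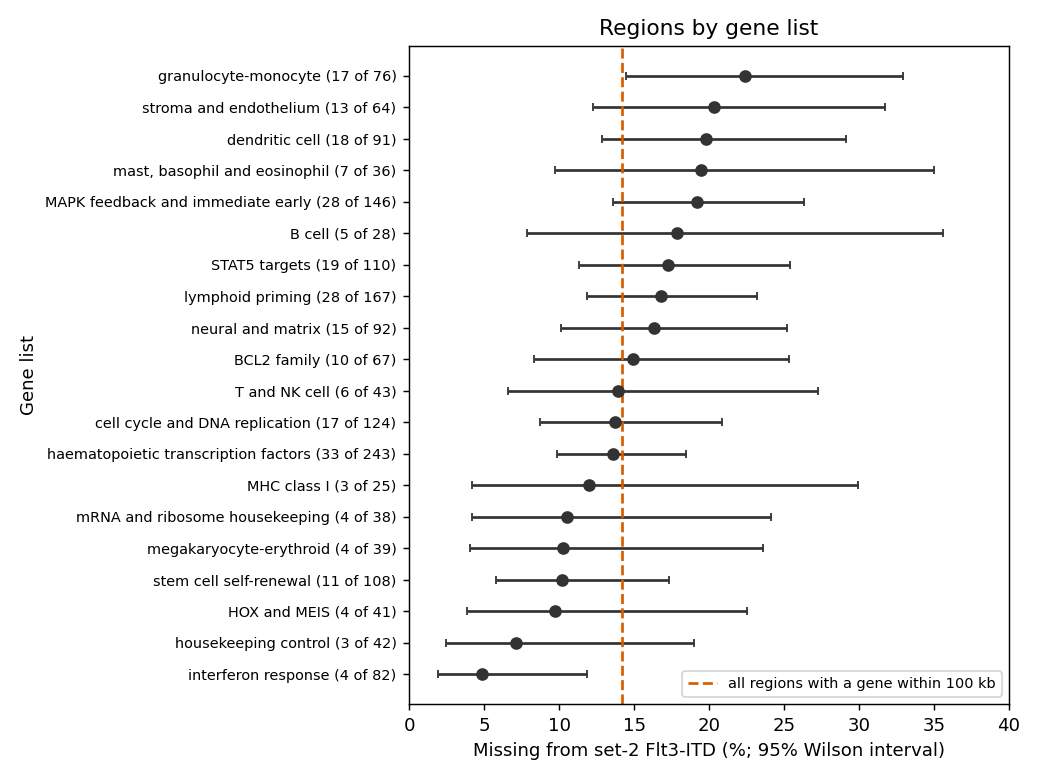
Share of regions missing from set-2 Flt3-ITD (x axis, percent of regions held by the 7 other lists, with 95% Wilson intervals for counting error) for 20 gene lists (y axis, members of regions held in brackets). The dashed line is the 14.2% of all regions with a gene within 100 kb; granulocyte-monocyte (22.4%) and interferon response (4.88%) are the lists whose interval does not reach it.

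Near the members, set-2 Flt3-ITD was not empty. The nearest peak of that list lay at a median distance of 6492 bp, and 6.40% of members (427) had one within 500 bp and 42.5% within 5 kb.

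Each list was also shortened to its 81961 peaks with the highest −log10 p, the number in set-2 Flt3-ITD. This did not make the numbers of regions equal, with 55928 in set-2 Flt3-ITD and 63414 to 67000 in the others. Set-2 Flt3-ITD then lacked 5072 of 43857 regions held by the other 7 (11.6%), against 0.874% to 2.72% for each other list. Of the 6672 members, 76.0% were still held by all 7. The weakest peak left in the shortened lists had a −log10 p of 13.7 to 26.9, and 1.001 in set-2 Flt3-ITD.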

How the data were processed

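Each of the 8 groups of 2 samples had 1 deposited peak list, named in the labels of both samples. Bowtie2 and MACS2 are the tools, and mm10 and GRCm38 the builds, per the submitters' processing notes. Thresholds, read shifting and filters were not stated there. Peaks carry 4 values that the authors deposited: a fold enrichment (ratio), its p-value and q-value as −log10, and a score from 413 to 1000 with no stated meaning. These are the peak's own values, used to describe, rank and filter peaks within 1 list.

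Peaks of chromosomes 1 to 19 that overlapped by 1 bp were merged (Python 3.11.15, pandas 2.3.3), and a region took its best peak per list. Distances used RefSeq gene spans and promoters of GRCm38.p6; a nearest gene is only that. Of 442 gene list entries, 440 were matched. Merging and distances were tested on simulated data. Wilson intervals (95%, scipy 1.17.1) cover counting error only. The members and gene lists were chosen with earlier results of these data known. Named regions were those with the highest and lowest lowest rank, the strongest at promoters, up to 4 per gene list, the widest, the genes with most members and the extremes by Flt3-ITD status; others, such as those at Flt3, Runx1 and the genes with every region missing, were chosen after their values were seen. Alternatives were equal list lengths, a −log10 q of at least 5, stricter overlap, a 500 bp margin, added sex chromosomes and other windows.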

Additional observations from a re-analysis of the deposited data

How the results depend on the processing

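Across the alternatives the number of members stayed between 5072 and 7881, and 55 of 76 recomputed main values stayed within their interval or within 1.5 times the count. With equal numbers of peaks by −log10 p, the missing share was 11.6% and the median lowest rank 47.7. With equal numbers by fold enrichment they were 11.9% and 46.4, with a median width of 663 bp and 6.75% of members within 1 kb of a start. A −log10 q of at least 5 in every list gave 15.3% and 654 bp, and a margin of 500 bp around set-2 Flt3-ITD peaks gave 13.2% and 7.74% within 1 kb. Within 500 bp of a start lay 7.23% and within 2 kb 11.9% (24.1% and 27.1% of regions held by all 8 lists). Ranks by fold enrichment gave a median lowest rank of 48.3. Alternatives added after seeing the data gave 11.7% of members within 1 kb where the nearest gene had a listed start, against 32.8%, and a missing share from 14.62% to 15.85% when 1 of the 7 lists was not required. The cause of these shifts was not tested. The granulocyte-monocyte share ranged from 16.7% to 25% and that of interferon response from 4.88% to 5.13%. No paired analysis was possible because each group has 1 list and no value per sample. Unknown depth and a single list per group limit every value: a missing peak is not a closed region.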

Other observations

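Of 919 microRNA hairpins on these chromosomes in the RefSeq table (GRCm38.p6), 5 overlapped a region missing only from set-2 Flt3-ITD and 93 a region held by all 8 lists. They were those of Mir7011, inside the region nearest to Sema4a, Mir7229 (Sgsm1), Mir7228 (Syna), Mir7668 (Zfp27) and Mir6936 (Sirt7). The strongest was the Mir7668 region (chr7:29905815-29906711), with −log10 p from 35.4 in Runx1-het to 58.5 in set-1 Flt3-ITD. The mature sequence has its seed, bases 2 to 8, in capitals.
mmu-miR-7668-3p: cGGUGCAGgggauucagaggag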
